A study of Rattus norvegicus with 12 samples.

Results

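The tubulin isotypes are the alpha and beta tubulin genes whose proteins pair to build microtubules, and they were followed here in rat ventricle after coronary occlusion and reperfusion. Of 10 isotype genes looked for (Tuba1a, Tuba1b, Tuba1c, Tuba4a, Tuba8, Tubb2a, Tubb2b, Tubb4b, Tubb5 and Tubb6), 7 had a probe set of the array annotated with that symbol alone, on 8 of its 15923 probe sets. Tubb5 had 2 such probe sets and each of the other 6 genes had 1. All 8 passed the filter on dim signals, and all were tested. Tubb2b passed it mainly through its IR arrays, as described below. Tuba1a, Tuba1b and Tuba1c share a probe set annotated with all 3 symbols, and no value of their own was assigned to them.

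IR stands for ischaemia and reperfusion: flow in the left anterior descending coronary artery (LAD) was stopped for 30 min and then restored, whereas sham rats had the surgery with no occlusion. Ventricle was collected after 2 or 7 days, which gave 3 IR and 3 sham rats at 2 d and 3 of each at 7 d, with 1 array per rat. Rats are named by the number in their label. The series description lists the 7 d sham group in both places where a sham group is named and omits a 2 d sham group, so the 2 d shams are those whose sample titles say so. Their strain, sex and age, and the region of ventricle taken, were not given in the sources used here.

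Microtubules are hollow polymers of alpha and beta tubulin dimers. Isotypes are very alike in their core and differ mostly in the C-terminal tail, which faces outward and carries modifications such as detyrosination and glutamylation. Tuba8 and Tuba4a are alpha isotypes known from striated muscle, and Tuba4a is made without the terminal tyrosine. Tubb5 and Tubb4b are beta isotypes of most cell types. Tubb2a, Tubb2b and the related Tubb3 are best known from neurons, and Tubb6 is a widely expressed, divergent beta isotype. In heart muscle a denser microtubule network is known to add to the resistance against shortening.

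The stretches before the start sites of Tuba8, which fell at 7 d, and Tubb6, which rose most at 2 d, are shown as examples of the members that moved in opposite directions. They are the 250 bases before the start site in RefSeq, build GRCr8, with capitals for matches to 6 short motifs.
Tuba8, chr4:156112022-156112271, plus strand: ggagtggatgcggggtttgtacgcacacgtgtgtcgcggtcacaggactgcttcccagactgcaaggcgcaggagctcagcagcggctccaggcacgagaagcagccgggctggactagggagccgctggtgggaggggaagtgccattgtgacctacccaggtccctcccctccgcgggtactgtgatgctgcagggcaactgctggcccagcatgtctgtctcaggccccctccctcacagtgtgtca
Tubb6, chr18:63213037-63213286, plus strand: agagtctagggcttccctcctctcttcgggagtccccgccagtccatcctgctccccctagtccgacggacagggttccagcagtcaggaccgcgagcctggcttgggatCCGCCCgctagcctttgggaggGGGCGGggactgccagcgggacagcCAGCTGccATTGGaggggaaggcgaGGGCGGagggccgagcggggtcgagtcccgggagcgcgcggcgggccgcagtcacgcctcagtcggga

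All 10 genes were found in the promoter table, with 1 window of 300 bases each (250 before and 50 after the start). The windows were searched on both strands for the CCAAT box (CCAAT), the GC box (GGGCGG), the TATA box (TATAAA), the M-CAT element (CATTCC), an E-box (CAGCTG), the cell cycle homology region (TTTGAA), and the CArG box and MEF2 site by their usual consensus. The capitals mark the first 6, and no 2 of the matches shown overlap. In Tubb6 the capitals are 3 GC boxes, an E-box and a CCAAT box. A GC box lay in the windows of 8 of the 10 genes, against 33.1% of all 33469 windows in the table, and a CCAAT box in 7, against 37.5%. The TATA box was found in Tubb2a and Tubb4b (14.2% of all windows), and no member held a CArG box (1.64%), a MEF2 site (1.87%) or an M-CAT element (14.2%). The E-box was found in Tuba1b and Tubb6 (15.1% of all windows) and the cell cycle homology region in Tuba1c and Tubb4b (18.3%). The Tuba8 window held none of the 8 motifs and each of the other 9 genes held at least 1, which describes these letters in these windows and no factor's binding. The windows of the 10 genes were 53.0% (Tubb4b) to 75.7% (Tuba1b) G and C, against a median of 51.7% over all windows. The part of this base content in the motif counts was not tested.

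Tuba8 signal was lower in the reperfused ventricle, and at 7 d it was among the largest decreases on the array. In the 2 d sham rats 71, 72 and 74 the signal (MAS5 intensity on a linear scale) was 6473.0, 8496.9 and 5134.3, and in the 2 d IR rats 69, 73 and 76 it was 2527.7, 2504.1 and 5487.1. In the 7 d sham rats 80, 81 and 82 it was 4555.6, 8002.1 and 9499.4, against 2680.0, 2630.9 and 3224.5 in the 7 d IR rats 44, 47 and 48. At 7 d every IR rat lay below every sham rat; at 2 d rat 76 lay within the range of the shams and the other IR rats lay below it. Rat 76 had the highest Tuba8 signal of the 6 IR rats and rat 80 the lowest of the 6 sham rats.

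On the log2 scale the 7 d change was -1.25 (SE 0.29, a 2.39-fold lower level; limma adjusted p = 0.0156), from a mean signal of 7352 ± 2535 in sham to 2845 ± 329 in IR ventricle (SD, n = 3). Only 3 of the 10527 probe sets tested had a more negative 7 d change. The 2 d change was -0.96 (SE 0.29, 95% interval -1.58 to -0.35) and did not pass the threshold of 0.05 (adjusted p = 0.0798), although it was the eighth most negative of the 10527. Fold changes are on the log2(signal + 195.45) scale, which understates the change of dim genes. The 7 d call was lost without 7 d IR rat 44 (-1.22, adjusted p = 0.0531), 7 d IR rat 47 (-1.20, adjusted p = 0.0542) or 7 d sham rat 82 (-1.04, adjusted p = 0.0806), within a range of 0.00359 to 0.0806 over all alternatives. Without 2 d IR rat 76 the 2 d change was -1.32 and passed (adjusted p = 0.0326), within a range of 0.0326 to 0.343.

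Tuba4a, the other muscle-associated alpha isotype, also had lower means after IR but passed at neither day. Its signal was 13219.4, 19065.8 and 12704.1 in 2 d sham and 10361.7, 11833.5 and 12988.5 in 2 d IR rats, given in the order of their numbers. At 7 d it was 11720.0, 13757.1 and 16473.6 in sham and 8923.3, 7254.0 and 13522.3 in IR rats. The groups overlapped on both days, through rat 76 at 2 d and rat 48 at 7 d. The log2 change was -0.33 at 2 d (SE 0.21, 95% interval -0.77 to 0.11, adjusted p = 0.381) and -0.52 at 7 d (SE 0.21, 95% interval -0.96 to -0.08, adjusted p = 0.112). Without rat 48 the 7 d change was -0.77 and passed (adjusted p = 0.0276, in a range of 0.0276 to 0.366 over all alternatives).

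**Figure D1:**
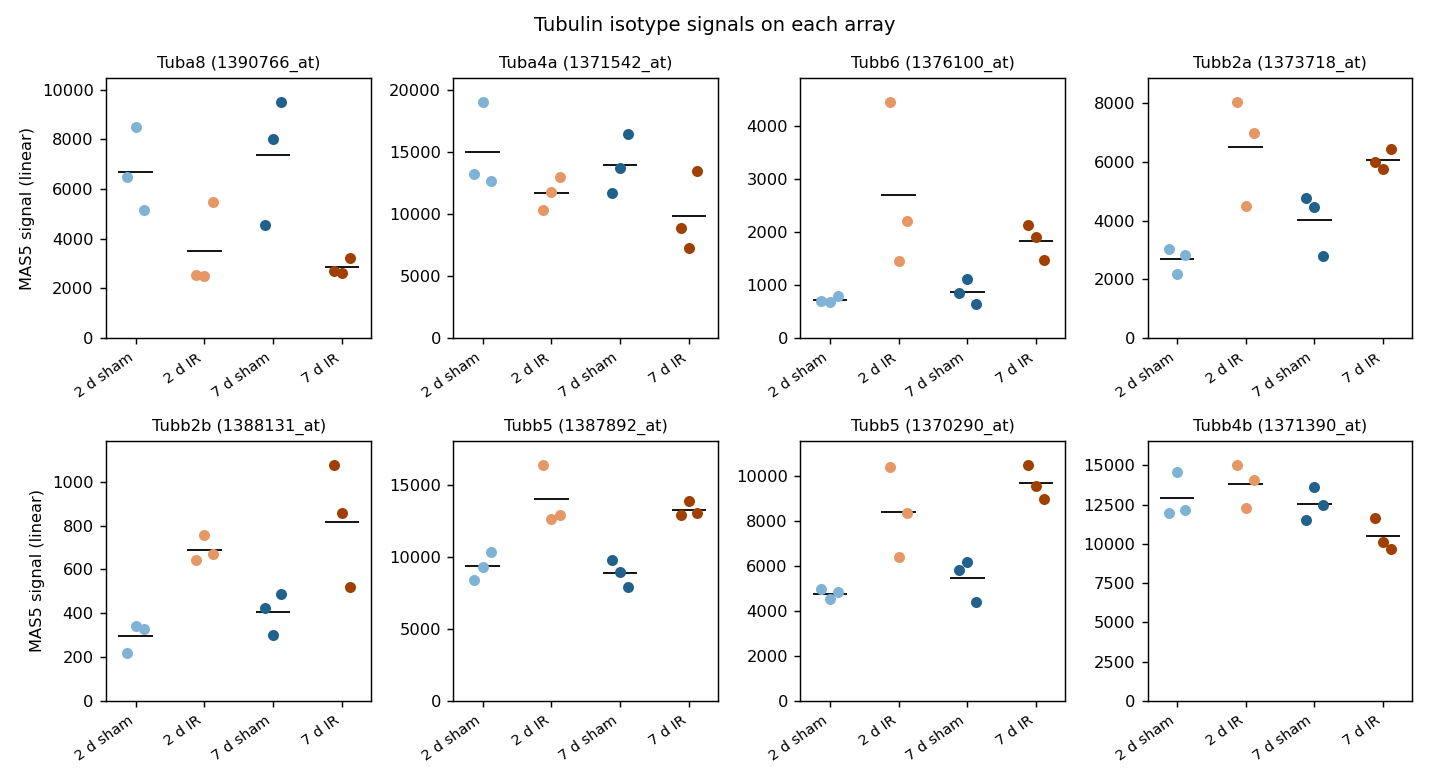
MAS5 signal (linear axis from 0) of the 8 tubulin probe sets on each of the 12 arrays, by group; each point is 1 rat and each bar is the mean of 3 rats. Tuba8 ranges from 2504.1 to 5487.1 in the 6 IR rats and from 4555.6 to 9499.4 in the 6 sham rats, while both Tubb5 probe sets, Tubb6 and Tubb2b have all 6 IR rats above all 6 sham rats.

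Tubb6 had the largest increase of the family. Its signal was 704.9, 675.5 and 801.5 in 2 d sham rats 71, 72 and 74 and 4461.9, 1448.3 and 2215.7 in 2 d IR rats 69, 73 and 76. In 7 d sham rats 80, 81 and 82 it was 854.0, 1113.5 and 650.8, and in 7 d IR rats 44, 47 and 48 it was 2142.5, 1909.2 and 1467.7. All IR rats lay above all sham rats, and rat 69 was far above the rest. The log2 change was 1.52 at 2 d (SE 0.28, 2.87-fold, adjusted p = 0.0185), larger than that of all but 22 other probe sets. At 7 d it was 0.94 (SE 0.28, 1.92-fold, adjusted p = 0.0434).

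Tubb5, the beta isotype of most growing cells, rose on both days by both of its probe sets. On 1387892_at, the probe set that stands for the gene in counts, the signal was 8369.9, 9302.1 and 10317.2 in 2 d sham and 16389.9, 12641.9 and 12911.0 in 2 d IR rats. The 7 d sham rats had 9742.7, 8947.0 and 7921.3 and the 7 d IR rats 12873.1, 13886.6 and 13032.3. The lowest IR rat was thus above the highest sham rat of either day. The log2 change was 0.57 on each day (SE 0.12; adjusted p = 0.0332 at 2 d and 0.0126 at 7 d). The second probe set, 1370290_at, gave 0.77 at 2 d (SE 0.16, adjusted p = 0.029) and 0.82 at 7 d (SE 0.16, adjusted p = 0.00946), with signals of 4383.0 to 6170.5 in the 6 sham rats and 6410.3 to 10508.9 in the 6 IR rats. The 2 d call on 1387892_at was lost without 2 d IR rat 69 (0.45), 2 d IR rat 76 (0.62), 2 d sham rat 71 (0.49) or 2 d sham rat 72 (0.57), and the 7 d call without 7 d sham rat 82 (0.50, adjusted p = 0.0643); the adjusted p ranged from 0.0129 to 0.179 at 2 d and from 0.00302 to 0.0643 at 7 d over all alternatives. On 1370290_at the 2 d call held in 7 of 12 fits with an array left out and was lost without 2 d IR rat 69 (0.60) or 76 (0.76), or any of the 2 d sham rats (0.73 to 0.79), with adjusted p from 0.0100 to 0.169 over all alternatives, and the 7 d call was lost without 7 d sham rat 82 (0.67, adjusted p = 0.0510, in a range of 0.000763 to 0.0510).

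Tubb2a and Tubb2b, a closely related pair of beta isotypes, each passed on 1 day. Tubb2a signal was 3015.0, 2182.4 and 2838.0 in 2 d sham and 8032.5, 4505.9 and 6987.9 in 2 d IR rats, and it rose by 1.19 (SE 0.21, 2.29-fold, adjusted p = 0.0174). At 7 d it was 4759.6, 4468.1 and 2808.7 in sham and 5975.6, 5769.6 and 6442.1 in IR rats. These 7 d groups did not overlap either, but the change of 0.61 (SE 0.21, 95% interval 0.15 to 1.06) did not pass (adjusted p = 0.0761). Against the shams of both days together it was 0.87 and passed (adjusted p = 0.00389, in a range of 0.00389 to 0.307 over all alternatives).

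Tubb2b signal was 218.6, 339.7 and 327.5 in 2 d sham and 645.0, 759.0 and 668.8 in 2 d IR rats. Its 7 d signals were 425.6, 301.3 and 485.7 in sham and 1078.8, 858.0 and 519.4 in IR rats. The 6 IR rats lay above the 6 sham rats, with rat 48 close to sham rat 82. The filter asked for signals above the 40th percentile of an array, whose median was 475.55. With 519.4 to 1078.8 in IR and 218.6 to 485.7 in sham rats, Tubb2b entered the tests mainly through its IR arrays. Its rise is thus not independent of the filter. The log2 change was 0.86 at 2 d (SE 0.22, adjusted p = 0.0505) and 0.73 at 7 d (SE 0.22, adjusted p = 0.0426). With no filter the 7 d change of 0.73 did not pass (limma adjusted p = 0.0694). With a pseudocount of 16, which weighs dim signals more, the 2 d change was 1.20 and passed (adjusted p = 0.0483, in a range of 0.0390 to 0.194), while the 7 d change was 0.96 and did not (adjusted p = 0.0512, in a range of 0.00445 to 0.185).

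Tubb4b, a beta isotype of most cell types, was called on neither day. Its signal was 11979.4, 14594.3 and 12145.1 in 2 d sham, 15041.0, 12256.0 and 14080.3 in 2 d IR, 11515.1, 13635.3 and 12445.8 in 7 d sham and 11658.5, 10149.1 and 9695.0 in 7 d IR rats. IR and sham rats overlapped on both days. The log2 change was 0.10 at 2 d (SE 0.12, 95% interval -0.16 to 0.35, adjusted p = 0.708) and -0.25 at 7 d (SE 0.12, 95% interval -0.51 to 0.01, adjusted p = 0.188). An increase at 7 d as large as the 0.57 of Tubb5 lies outside this interval, which is that of probe set 1371390_at alone. Another probe set, 1388557_at, annotated with both Tubb4b and C7, was higher at 7 d by 0.69 (SE 0.17, limma adjusted p = 0.0198). Which transcript it reads was not tested.

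**Figure D2:**
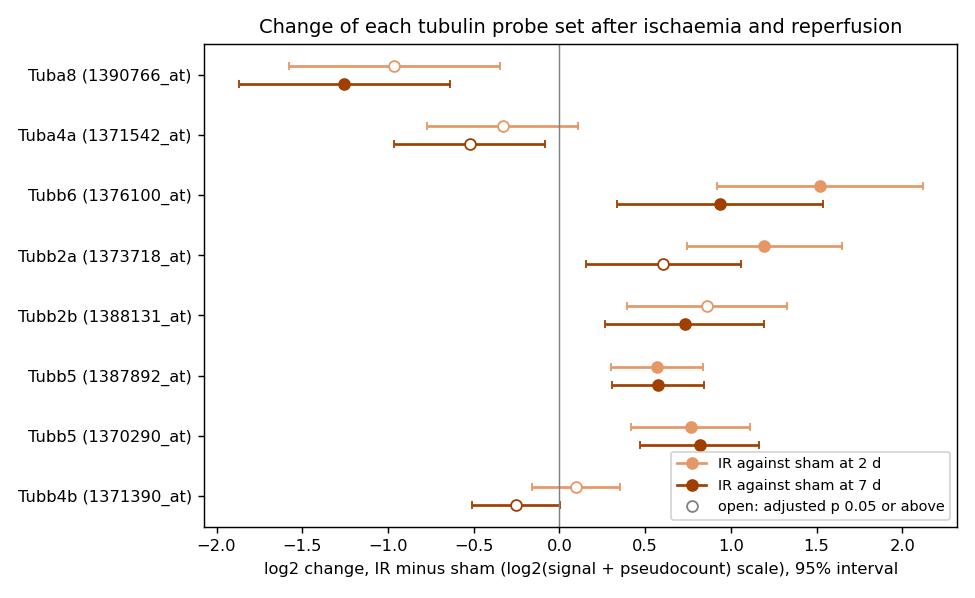
Log2 change of IR against sham ventricle for each tubulin probe set at 2 d and 7 d, as points with 95% intervals from limma; filled points have an adjusted p under 0.05. The alpha isotypes Tuba8 and Tuba4a lie left of 0 on both days and Tubb6, Tubb2a, Tubb2b and Tubb5 right of it, with Tubb6 at 1.52 and Tuba8 at -0.96 at 2 d.

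Counting each gene by its brightest probe set, 3 of the 7 tubulin genes rose at 2 d (Tubb6, Tubb2a and Tubb5) and 0 fell, where 1.88% of all probe sets tested were called higher and 0.589% lower. At 7 d 3 rose (Tubb6, Tubb2b and Tubb5) and 1 fell (Tuba8), where 6.22% of all probe sets were called higher and 5.85% lower. The 3 IR rats lay above the 3 sham rats for 4 genes on each day, against 13.9% of probe sets at 2 d and 16.6% at 7 d, and below them for 0 genes at 2 d, against 12.5%, and for 1 gene at 7 d, Tuba8, against 15.8%. The median change of the 7 genes was 0.57 at both 2 d and 7 d, and that of all probe sets tested was 0.003 and 0.007. Over both days, all 6 IR rats lay above all 6 sham rats for Tubb6, Tubb2b and Tubb5, as they did for 2.94% of probe sets. Tubb2b entered the tests mainly through its IR arrays, so its place in these counts is not independent of the filter.

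These counts rest on single arrays. Of the 7 genes, 0 were called at 2 d without 2 d IR rat 69, 2 d sham rat 71 or 2 d sham rat 72, and Tubb6 then had changes of 1.11, 1.50 and 1.48 (adjusted p = 0.0714, 0.0729 and 0.0816; range over all alternatives 0.00972 to 0.0816). Tubb2a had 1.03, 1.28 and 1.06 in the same fits (adjusted p = 0.101, 0.0660 and 0.0816; range 0.00517 to 0.101). At 7 d 0 were called without 7 d sham rat 82, 1 without 7 d IR rat 44 or rat 47, and 2 without 2 d IR rat 76, 7 d sham rat 80 or 2 d sham rat 74. The 7 d call of Tubb6 held in 4 of 12 fits with an array left out, that of Tubb2b in 5, that of Tuba8 in 9 and that of Tubb5 in 11. For Tubb6 it was lost without 7 d IR rat 44 or 47, 7 d sham rat 80 or 82, 2 d IR rat 76, or any of the 2 d sham rats, at changes of 0.78 to 0.94. For Tubb2b it was lost without 7 d IR rat 44 or 47, any of the 7 d sham rats, 2 d IR rat 76 or 2 d sham rat 74, at changes of 0.55 to 0.83. The direction of every change from sham to IR was the same in all of these fits for each of the 8 probe sets.

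To set Tuba8 against the 5 listed beta isotypes (Tubb2a, Tubb2b, Tubb4b, Tubb5 and Tubb6), their mean log2 signal was subtracted from that of Tuba8 on each array. Each day's sham mean was then set to 0. These 5 include Tubb5 and Tubb4b, which are made in most cell types. Tuba1a, Tuba1b and Tuba1c are not among them, since they had no value of their own. The 2 d IR rats 69, 73 and 76 lay at -2.45, -1.90 and -1.08, and the 7 d IR rats 44, 47 and 48 at -1.98, -1.90 and -1.44. The sham rats ran from -0.42 to 0.37 at 2 d and from -0.68 to 0.57 at 7 d. Every IR rat was below every sham rat, rat 76 included, whose Tuba8 signal alone had overlapped the shams. The difference holds the rise of beta isotypes as well as the fall of Tuba8. Tubb2b, part of the subtracted mean, entered the tests mainly through its IR arrays, so this separation is not independent of the filter. The mean of the IR rats was -1.81 at 2 d (SD 0.689 in IR and 0.395 in sham, n = 3) and -1.77 at 7 d (SD 0.291 and 0.629). With Tuba4a counted among the other isotypes the differences were -1.61 and -1.60. This difference is given as a description with no test, since its members were chosen with earlier results of these data known.

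**Figure D3:**
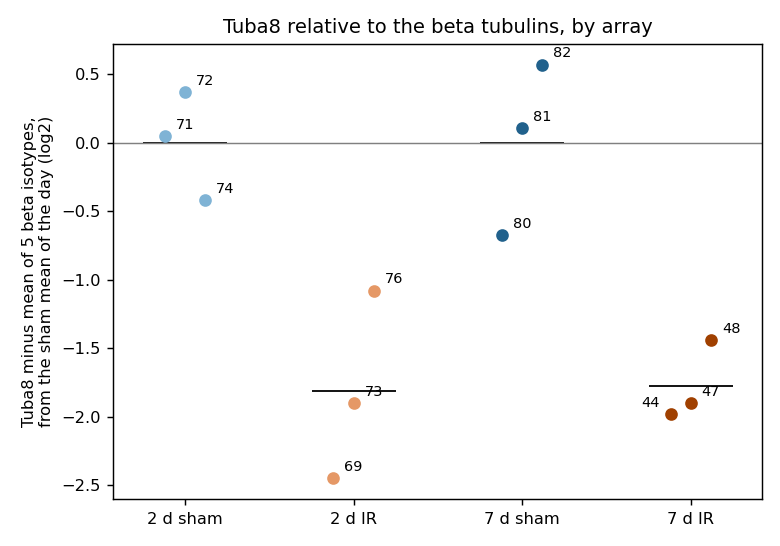
Log2 signal of Tuba8 minus the mean of the 5 beta isotypes on each array, with the sham mean of the same day at 0; points are rats with their numbers and bars are group means. The 6 IR rats lie between -2.45 and -1.08, all below the 6 sham rats, which lie between -0.68 and 0.57. The mean includes Tubb2b, which entered the tests mainly through its IR arrays.

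Between days no tubulin gene was called. limma called 0 of the 7 genes for the difference of the IR effect at 7 d from that at 2 d (0.0095% of all probe sets called; 0 genes at an unadjusted p under 0.05, against 7.14% of probe sets). For 7 d against 2 d sham it called 0 (0.076% of all probe sets; 1 gene, Tubb2a, at an unadjusted p under 0.05, against 9.42%), and for 7 d against 2 d IR 0 (3.45%; 1 gene, Tubb4b, at an unadjusted p under 0.05, against 16.4%). The difference of the effects was -0.58 for Tubb6 (SE 0.40, 95% interval -1.43 to 0.27) and -0.59 for Tubb2a (SE 0.30, 95% interval -1.23 to 0.05), and 0.01 for Tubb5 (SE 0.18, 95% interval -0.37 to 0.38). For Tuba8 it was -0.29 (SE 0.41, 95% interval -1.16 to 0.58). Tubb4b was lower in all 3 7 d IR rats than in all 3 2 d IR rats (-0.39, SE 0.12, adjusted p = 0.0996), as were 9.91% of probe sets.

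Markers of several cell types also differed between IR and sham ventricle. The counts of called markers are read against the shares of all probe sets tested. These were 1.88% higher and 0.589% lower at 2 d, and 6.22% higher and 5.85% lower at 7 d. In whole ventricle, fewer cells of a type and less RNA per cell cannot be told apart. Of 15 cardiomyocyte markers 14 were tested, and their summed signal was 643621 to 719230 in 2 d sham, 473067 to 630481 in 2 d IR, 611624 to 692649 in 7 d sham and 449853 to 504394 in 7 d IR rats. At 2 d 1 of the 14 fell (Tnni3, cardiac troponin I, -0.47) and 0 rose, and at 7 d 7 fell and 0 rose. The median change was -0.33 at 2 d and -0.40 at 7 d, and the most negative were Ryr2, the calcium release channel, with -0.56 at 2 d and Myh6, the alpha myosin heavy chain, with -0.79 at 7 d. The estimated changes of Tuba8, -0.96 and -1.25, were outside the range of the estimates of the 14 markers on both days. Its 95% intervals were -1.58 to -0.35 at 2 d and -1.87 to -0.64 at 7 d. They include the estimates of Ryr2 at 2 d and Myh6 at 7 d. Whether Tuba8 fell by more than these markers was not tested. Of 12 skeletal muscle markers 4 were tested, and Myh2, Myh4, Tnni2, Tnnt3, Tnnc2, Actn3, Mylpf and Myod1 were not among them; at 7 d 2 of the 4 fell, the muscle creatine kinase Ckm (-0.60), which heart muscle also makes, and the myosin Myh1 (-0.47).

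Markers of macrophages and monocytes rose on both days. Of 18 markers 15 were tested, with a summed signal of 46440.3 to 67413.4 in 2 d sham and 105698 to 165488 in 2 d IR rats, and of 45370.1 to 77129.4 in 7 d sham and 113110 to 124922 in 7 d IR rats. At 2 d 10 rose and 0 fell (median 1.01), and at 7 d 11 rose and 0 fell (median 0.95). Of all probe sets 1.88% were called higher and 0.589% lower at 2 d, and 6.22% and 5.85% at 7 d. Rat 69, which had the highest Tubb6, Tubb2a and Tubb5 signals of the 2 d IR rats, also had the highest macrophage sum, at 165488. Of the 2 d IR rats it also had the highest proliferating cell (25085.8) and fibroblast (183766) sums. Its cardiomyocyte (473067), skeletal muscle (55766.2) and nerve (1379.6) sums were the lowest, and its endothelial sum (25912.5) lay in between. Of 17 markers of proliferating cells 14 were tested; 2 rose at 2 d (median 0.57) and 0 at 7 d (median 0.31), and the summed signal in 2 d IR rats was 14367.6 to 25085.8 against 9122.4 to 12995.9 in 2 d sham rats. Of 15 fibroblast markers 1 rose at 2 d (median 0.66) and 11 at 7 d (median 1.07). From 2 d to 7 d IR 11 of them rose (median 1.17), where 3.45% of all probe sets were called in either direction. In the same comparison 0 of the 7 tubulin genes were called (median -0.20). Among 8 endothelial markers tested limma called 0 at 2 d (1 at an unadjusted p under 0.05) and 1 rose at 7 d. Among 3 tested nerve and Schwann cell markers it called 0 on either day (0 at 2 d and 1 at 7 d at an unadjusted p under 0.05). At that unadjusted threshold 21.5% of all probe sets were counted at 2 d and 28% at 7 d. In lists this short, the endothelial and nerve counts are near the shares of all probe sets. The part of these cell types in the tubulin changes was not tested.

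**Figure D4:**
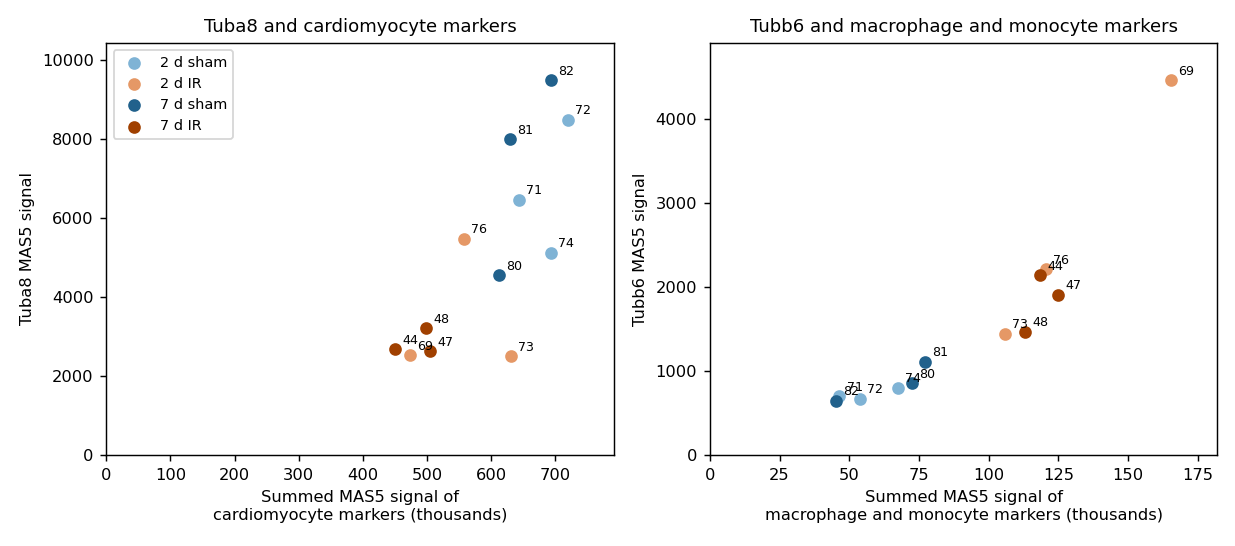
Signal of Tuba8 against the summed signal of 14 cardiomyocyte markers, and of Tubb6 against that of 15 macrophage and monocyte markers, each point being 1 of the 12 rats with its number (linear axes from 0). Of the 6 IR rats all but rat 76, at a Tuba8 signal of 5487.1, lie below every sham rat in Tuba8. The 2 d IR rat 73 is at a Tuba8 signal of 2504.1 and a cardiomyocyte sum of 630481. That sum is below every 2 d sham rat (643621 to 719230) and within the range of the 7 d sham rats (611624 to 692649). Tubb6 and the macrophage sum are both highest in rat 69.

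Single arrays stood apart from their groups. On the first principal component of the 10527 probe sets, 2 d IR rat 69 lay at 18.29 against -4.11 and 0.18 for the other 2 d IR rats, and 7 d sham rat 82 at -23.61 against -1.06 and -1.14 for the other 7 d sham rats. Without both arrays, 2 genes, Tubb6 and Tubb5, were called at 7 d, and Tuba8 had -1.04 (adjusted p = 0.0594, in the range given above). The log2 ratio of the 3' to the 5' probe set of Actb, a measure of RNA integrity, was 0.11 to 0.23 in 7 d IR and 0.38 to 0.82 in 7 d sham rats, and 0.16 to 0.30 and 0.13 to 0.31 at 2 d. Its part in the 7 d changes was not tested.

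Of 131 genes in 9 lists that fold, modify, stabilise, cut and travel on microtubules, 83 were tested; 2 rose and 0 fell at 2 d, and 3 rose and 5 fell at 7 d, with median changes of 0.05 and -0.03. These counts are near the shares of all probe sets, of which 2.47% were called in either direction at 2 d and 12.1% at 7 d. At 2 d the risers were Kif22, a kinesin of mitotic chromosomes (0.93, SE 0.22, adjusted p = 0.0431), and Mapre1, the end-binding protein EB1 of growing plus ends (0.59, SE 0.13, adjusted p = 0.0318). At 7 d Mapre3, its relative EB3, fell by 0.74 (SE 0.14, adjusted p = 0.00828), and it had -0.54 at 2 d without passing. The plus-end protein Slain2 fell by 0.48 at 7 d (SE 0.15). Of the motors, Kif3c, a kinesin-2 subunit, rose at 7 d (1.23, SE 0.33, adjusted p = 0.0296), as did the dynactin subunit Dctn4 (0.52, SE 0.15), while Kif1c (-0.56, SE 0.13) and the dynactin subunit Dctn6 (-0.47, SE 0.13) fell. Dclk1, a doublecortin-like kinase, rose (0.53, SE 0.15), and Mid1ip1, a partner of the microtubule protein Mid1, fell (-0.66, SE 0.14).

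Of the 6 tested folding cofactors, the 14 genes of the CCT chaperonin, prefoldin and their co-chaperone Pdcl3, the 10 modifying enzymes and the 7 genes of gamma-tubulin and nucleation, limma called 0 at 2 d and at 7 d, which in lists of this size is read against the same shares of all probe sets. At an unadjusted p under 0.05 these lists held 0, 2, 3 and 0 genes at 2 d and 0, 2, 1 and 2 at 7 d, in the order named. The largest of their changes was that of Ttl, the ligase that restores the terminal tyrosine, with -0.50 at 2 d. At an unadjusted p under 0.05, 21 of the 83 genes of all 9 lists were counted at 2 d and 22 at 7 d, where 21.5% and 28% of all probe sets were. Tubb3, the neuronal beta isotype, had changes of 0.68 at 2 d (SE 0.27, adjusted p = 0.157) and 0.52 at 7 d (SE 0.27, adjusted p = 0.221), and Stmn1, which binds free tubulin dimers, had 0.60 (SE 0.17, adjusted p = 0.0699) and 0.36.

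Among 7719 other genes tested, the 5 whose log2 signal followed that of Tuba8 most closely over the 12 arrays were Gstk1, a mitochondrial and peroxisomal glutathione transferase (Pearson r 0.97), the dynactin subunit Dctn6 (0.97), Prcd (0.97), Frmd5 (0.95) and Cox10, which makes the haem of cytochrome c oxidase (0.95). For Tubb6 they were Tyrobp, the adaptor DAP12 of myeloid receptors (0.97), the membrane protein Emp3 (0.96), the cathepsin Ctsz (0.96), the endocytic adaptor Dab2 (0.96) and the transketolase Tkt (0.96). Correlations are descriptions over arrays that share 4 groups and the scaling of each array. Both sets of genes were picked on these same 12 arrays. Their directions of change from sham to IR follow largely from that choice and are no separate evidence. At 2 d the 5 genes like Tubb6 all rose, by 0.92 to 1.56, and the 5 like Tuba8 had changes of -0.49 to -0.29 that did not pass. At 7 d 4 of the former rose and 4 of the latter fell, without Emp3 (0.57, adjusted p = 0.0635) and Frmd5 (-0.35, adjusted p = 0.108). Within the family, Tuba8 had r of 0.80 with Tuba4a, 0.38 with Tubb4b and -0.88 to -0.72 with the other beta probe sets.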

How the data were processed

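Total RNA of 12 rat ventricles was labelled with biotin and measured on 1 array per rat, per the labels. The authors deposited a linear intensity for each probe set, computed with MAS5 according to the submitters' processing notes, without a version. Each array's mean without the lowest and highest 2% of probe sets was 1500.4 to 1500.5, so the arrays had been scaled to a common level, and this scaling was kept. Groups came from sample titles, which name 4 groups of 3. Nothing names a batch, and whether arrays were run together is not given.

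From these values log2(signal + 195.45) was computed; the added constant is the 12 arrays' median 20th percentile. After removal of 57 control probe sets, 10527 of 15866 were tested, those that exceeded the 40th percentile on 3 or more arrays. Symbols came from GEO's platform annotation: 12789 probe sets have 1 symbol, 312 several and 2822 are unnamed; 12754 of the 12789 were matched by gene identifier to RefSeq (GRCr8), with 0 updates. Near-identical isotypes can share probe sequence, which was not examined. The 4 group means were compared in 1 model by limma 3.58.1, under R 4.3.3 (eBayes with trend; checked on simulated data); tests were two-sided, with Benjamini-Hochberg adjustment over 10527 probe sets and a threshold of 0.05. Named were all members, up to 3 called genes per microtubule list and IR comparison, up to 2 per marker list, and the 5 genes most correlated with Tuba8 and with Tubb6; the gene with the extreme change of a list, Tubb3 and Stmn1 were added after their values were seen. Members and lists were chosen with earlier results of these data known. The number of arrays limits the precision.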

Additional observations from a re-analysis of the deposited data

Results flagged for a closer look

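Signal also appeared on 2 tubulin probe sets that carry several symbols and so stand for no gene in the comparisons. On probe set 1367579_a_at, annotated with Tuba1a, Tuba1b and Tuba1c together, every IR rat lay above every sham rat of the same day. The same held for 13.9% of all probe sets tested at 2 d and 16.6% at 7 d. The change of 1367579_a_at was 0.36 at 2 d (SE 0.15, limma adjusted p = 0.187), with signals of 22472.8 to 29325.0 in sham and 29668.9 to 38482.9 in IR rats. At 7 d it was 0.39 (SE 0.15, adjusted p = 0.107), with 19939.7 to 27642.1 in sham and 28539.8 to 38525.3 in IR rats; neither passed.

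Probe set 1388557_at, annotated with Tubb4b and the complement gene C7, was higher at 7 d by 0.69 (SE 0.17, adjusted p = 0.0198), at 14605.4 to 16425.0 in IR and 7344.9 to 11908.2 in sham rats. At 2 d its change was 0.28 (SE 0.17, adjusted p = 0.363) and the groups overlapped, and from 2 d to 7 d IR it rose by 1.16 (adjusted p = 0.00179). The probe set annotated with Tubb4b alone had -0.25 at 7 d and -0.39 from 2 d to 7 d IR. Which of the 2 transcripts 1388557_at reads was not tested. Groups of 3 rats are too small for the test of single outlying rats.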

How the results depend on the processing

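The direction of IR against sham was kept for all 8 probe sets in every alternative run: pseudocounts of 16 or the 40th percentile, no filter, median centring, quantile normalization, no intensity trend, the compared groups alone, the mean of a gene's probe sets (run for a gene, so not for 1370290_at apart), shams of both days, each array left out, and 2 d IR rat 69 with 7 d sham rat 82 left out (chosen after seeing the data). The calls were less stable. At 2 d 0 to 4 tubulin genes were called with 1 array left out, against 3, and 2 to 4 in the other alternatives, with 2 under no filter, no trend or without rats 69 and 82. At 7 d 0 to 5 were called with 1 array left out, against 4; the other alternatives gave 2 with no filter or without rats 69 and 82, 6 with shams of both days, and 3 or 4 otherwise. All probe sets called numbered 260 at 2 d and 1271 at 7 d; with 1 array left out they ran from 2 to 515 and from 175 to 1463. They were 77 at 2 d with no filter, 68 with no trend and 70 without rats 69 and 82, and at 7 d 2545 with shams of both days and 541 without rats 69 and 82. The difference of Tuba8 from the beta isotypes ran from -2.18 to -1.49 at 2 d and from -2.11 to -1.49 at 7 d with 1 array left out.

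Signs reversed only in uncalled differences between days. For 7 d against 2 d sham, Tubb4b became 0.0067 with quantile normalization, Tubb5 0.051 with the mean of its probe sets, and Tuba8 -0.12 and Tubb5 0.0061 without rats 69 and 82. For 7 d against 2 d IR, Tubb5 became 0.080 with the mean of its probe sets, and without rats 69 and 82 Tubb2a became 0.11, Tubb5 0.053 and Tubb6 0.018. With 1 array left out, 7 d against 2 d sham ran from -0.21 to 0.095 for Tuba4a, -0.12 to 0.40 for Tuba8, -0.10 to 0.051 for Tubb4b and -0.15 to 0.0061 for Tubb5. The same for IR ran from -0.38 to 0.16 for Tuba8, -0.30 to 0.11 for Tubb2a, -0.028 to 0.39 for Tubb2b, -0.13 to 0.05 for Tubb5 and -0.73 to 0.018 for Tubb6. The difference of the effects ran from -0.44 to 0.0024 for Tuba4a, -0.60 to 0.063 for Tuba8, -0.31 to 0.10 for Tubb2b, -0.072 to 0.12 for Tubb5 and -0.12 to 0.22 for its second probe set. The cause was not tested. No paired analysis was possible because the groups share no replicate numbers. Where an omission left 2 arrays in a group, the spread was pooled over groups.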
